A study of Mus musculus with 9 samples.

Results

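The 10 genes described here encode AP-1 factors and close relatives: *Jun*, *Junb*, *Jund*, *Fos*, *Fosb*, *Fosl1*, *Fosl2*, *Atf3*, *Batf3* and *Maff*. Regions of open chromatin were assigned to them by position. Peaks of all 9 libraries that overlapped or touched were merged, merged regions with a peak in at least 2 of 3 libraries of any line were kept, and each of the 97338 regions kept was assigned to a gene by its closest protein-coding start site. Of these, 105 regions fell to the 10 genes: 30 to *Fosl2*, 20 to *Jun*, 16 to *Fos*, 13 to *Atf3*, 7 each to *Fosb* and *Maff*, 5 to *Batf3*, 3 to *Junb*, and 2 each to *Fosl1* and *Jund*. Nearness says nothing of which gene a region acts on.

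AP-1 is a dimer of basic leucine zipper (bZIP) proteins, in which a JUN protein pairs with itself or with a FOS, ATF or MAF protein. Its best known site is TGACTCA, and dimers that hold ATF proteins prefer the cAMP response element (CRE), TGACGTCA. Many of these genes are immediate early genes, switched on within minutes by growth factors, serum or stress, and in mesenchymal cells AP-1 takes part in proliferation, matrix turnover and the choice between bone and fat.

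Omni-ATAC-seq, in which a transposase cuts open chromatin, was run on C3H/10T1/2 (CCL-226) cells, an established mouse line of mesenchymal progenitor cells (MPCs). The groups were WT control cells, which carried Cas9 from a vector without a guide RNA, and B10 and G7, clones with a knockout (KO) of *Atrx*, with 3 libraries per group. The X-linked gene *Atrx* encodes a protein that remodels chromatin. All lines came from single sorted cells, each clone stood for 1 of the 2 guide RNAs used, and which guide made which clone is not given. Libraries of a line are therefore libraries of 1 clone, and no label says whether they came from separate cultures, so that p-values measure only the spread between libraries, which may be technical.

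The libraries held 76385 to 88535 peaks. The peak files give no read counts, so depth is unknown and a missing peak means not detected rather than closed. The start site of *Atrx* was under a peak in every library, at ranks from 80.8 to 86.0 (percentiles of peak strength in a library), which is no check of a mutation made by a guide. Of 12 mesenchymal marker genes, 10 had a region over a start site, all 10 with peaks in all 9 libraries. For 4 blood markers and 2 muscle markers the number was 0, for epithelial cells 0 of 4, for endothelial cells 2 of 3, for neural cells 1 of 2 and for pluripotent cells 0 of 2. A further epithelial, endothelial and pluripotent marker each had a region within 1 kb of a start site but not over it. Of all these markers outside the mesenchymal list, 1 endothelial and 1 neural gene had such a region with peaks in all 9 libraries.

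Promoter sequences are shown for 4 of the genes. *Atf3* differed most between the lines, *Fos* and *Jun* are the founding members and were open throughout, and *Maff* had the strongest start site region. Each is the stretch of 250 bases before the start site, 5′ to 3′ on the gene's strand, from RefSeq on GRCm38.p6 (mm10). Capitals mark TGACGTCA or its variant TGACATCA, on either strand. The *Atf3* stretch is chr1:191183334-191183583 (minus strand), that of *Fos* is chr12:85473640-85473889 (plus strand), that of *Jun* is chr4:95052223-95052472 (minus strand) and that of *Maff* is chr15:79347270-79347519 (plus strand).
Atf3: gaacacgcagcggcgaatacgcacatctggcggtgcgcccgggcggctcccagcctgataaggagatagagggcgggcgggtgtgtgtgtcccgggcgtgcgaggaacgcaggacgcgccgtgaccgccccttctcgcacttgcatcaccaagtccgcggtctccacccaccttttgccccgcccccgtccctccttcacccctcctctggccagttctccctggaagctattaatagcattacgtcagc
Fos: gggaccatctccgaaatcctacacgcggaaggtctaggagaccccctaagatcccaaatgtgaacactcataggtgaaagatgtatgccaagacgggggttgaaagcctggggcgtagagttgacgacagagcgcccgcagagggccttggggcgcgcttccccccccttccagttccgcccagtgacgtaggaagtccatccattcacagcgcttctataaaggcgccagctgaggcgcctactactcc
Jun: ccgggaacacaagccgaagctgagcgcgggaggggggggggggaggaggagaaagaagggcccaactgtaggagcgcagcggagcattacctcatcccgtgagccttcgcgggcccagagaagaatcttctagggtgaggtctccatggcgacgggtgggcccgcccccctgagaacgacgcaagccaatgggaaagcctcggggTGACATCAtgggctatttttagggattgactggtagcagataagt
Maff: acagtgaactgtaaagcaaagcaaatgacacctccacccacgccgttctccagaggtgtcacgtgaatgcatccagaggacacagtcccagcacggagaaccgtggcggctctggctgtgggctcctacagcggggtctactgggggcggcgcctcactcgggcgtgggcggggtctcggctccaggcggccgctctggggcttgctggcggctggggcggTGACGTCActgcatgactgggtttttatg
Among 32851 RefSeq promoter stretches of this length, 1.55% held TGACGTCA, 2.93% held TGACATCA, 4.46% held TGACTCA and 1.47% held a CArG box, the site of serum response factor, each counted on both strands. Of the stretches shown, TGACGTCA was present in that of *Maff* and TGACATCA in that of *Jun*. *Maff* has 3 RefSeq promoter stretches, of which 1 is shown, and another one held TGACATCA. None of these 4 motifs was found in the *Atf3* and *Fos* stretches shown, which says only that these letters are not in these windows.

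To ask how open the AP-1 genes were and whether that depended on *Atrx*, each region was given a rank in each library, the percentile of its strongest peak by −log10 q-value among all peaks of that library, with 100 the highest. The start site region had a peak in all 9 libraries for 9 of 10 members, as did 10559 of all 11837 regions over protein-coding start sites. Median ranks of these 9 ran from 75.2 to 97.4, beside a median of 90.2 for the 10559 regions. *Atf3* and *Batf3* stood out. The *Atf3* start site region ranked far higher in both KO clones than in WT, and the *Batf3* start site region had a peak in G7 libraries only.

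**Figure D1:**
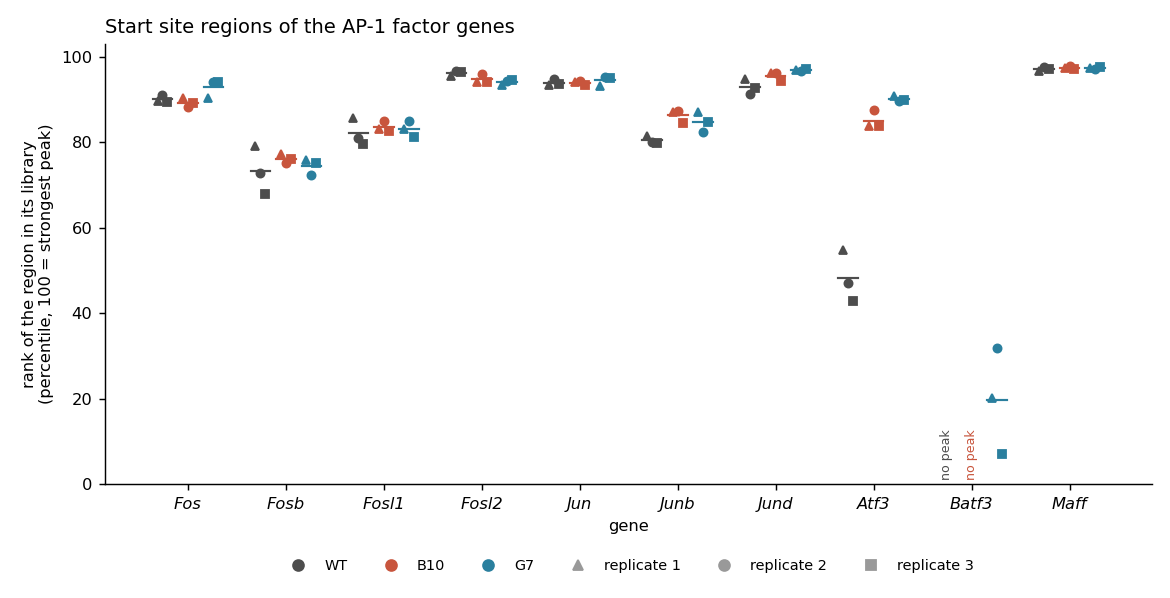
Rank of the start site region of each AP-1 factor gene (x axis) in each library, as a percentile of peak strength within the library (y axis, 100 is the strongest). Colours give the line, symbols the replicate number and short bars the mean. *Atf3* lies between 42.8 and 54.9 in WT and between 83.7 and 90.8 in the KO clones, *Batf3* has a peak in the 3 G7 libraries alone, and no library of the other 8 genes is below 67.9.

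ATF3 is a stress-induced member of the ATF family that often represses transcription. Its start site region (chr1:191182396-191183811, over the 5′ end of the transcripts that start at 191183340) had ranks of 54.9, 47.1 and 42.8 in WT replicates 1 to 3, of 83.7, 87.5 and 83.7 in B10, and of 90.8, 89.7 and 90.0 in G7. Every KO library lay above every WT library, and the gap between the groups was wider than the spread within any of them. Of all regions with a peak in all 9 libraries, 20.9% had every B10 library above every WT library, and 14.2% every G7 library. The rank rose by 36.7 ± 3.20 points in B10 (SE, limma adjusted p = 0.00024) and by 41.9 ± 3.20 points in G7 (SE, limma adjusted p = 0.000223), both set against the same WT libraries. By size of this difference it was number 20 in B10 and number 13 in G7 among the 10559 start site regions tested. Among all 47431 tested regions it was number 686 in B10 and number 132 in G7. The fold enrichment of the peak, its signal over background, was 6.83 ± 0.752 in WT, 9.80 ± 1.01 in B10 and 8.88 ± 0.107 in G7 (SD, n = 3 each). On the log2 scale of fold enrichment the difference was 0.48 in G7 and no longer passed the test (limma adjusted p = 0.0824), and after quantile normalization it was 0.46 (limma adjusted p = 0.0845). The call in B10 held under every alternative fitted.

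JUN proteins can pair among themselves as well as with FOS and ATF proteins. The *Jun* start site region ranked from 93.1 to 95.3 in all 9 libraries, and no line stood apart. *Junb*, often a brake on *Jun* activity, ranked at 81.4, 80.1 and 79.8 in WT, 87.1, 87.4 and 84.5 in B10 and 87.2, 82.5 and 84.8 in G7. All KO libraries were above all WT libraries, and the difference was 5.89 ± 1.60 points in B10 (SE, limma adjusted p = 0.0337) and 4.37 ± 1.60 in G7 (SE, limma adjusted p = 0.117, or 0.037 with the replicate block). *Jund*, the most steadily expressed of the family, ranked at 94.7, 91.4 and 92.8 in WT, 96.3, 96.1 and 94.4 in B10 and 97.0, 96.6 and 97.1 in G7. The difference was 2.64 ± 0.846 points in B10 (SE, limma adjusted p = 0.0613, or 0.0142 with the replicate block) and 3.93 ± 0.846 in G7 (SE, limma adjusted p = 0.0193). Both genes are on chromosome 8, where the median rank difference over all tested regions was 3.85 in B10 and 4.17 in G7. With the median of each chromosome taken off, *Junb* in B10 was at 0.875 points (limma adjusted p = 0.763) and *Jund* in G7 at -0.526 (limma adjusted p = 0.773). On the log2 scale of fold enrichment they were at 0.064 and -0.065, so the rises of *Junb* in B10 and *Jund* in G7 were called on the rank scale without that step and on neither of these scales. The *Junb* call was also lost without any 1 of WT replicates 2 and 3, B10 replicates 1 and 2 and G7 replicate 3 (limma adjusted p from 0.0576 to 0.113), and the *Jund* call without any 1 of WT replicates 2 and 3 and G7 replicates 1 and 3 (limma adjusted p from 0.0529 to 0.0707).

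FOS proteins do not pair among themselves and bind DNA with a partner such as a JUN protein. The *Fos* start site region ranked from 88.2 to 91.1 in WT and B10 and at 90.5, 94.0 and 94.0 in G7, a difference from WT of 2.78 ± 1.11 points in G7 that missed the threshold (SE, limma adjusted p = 0.148, or 0.0425 without G7 replicate 1). With the median of each chromosome taken off, the difference in G7 was 0.432 points (limma adjusted p = 0.904). On log2 fold enrichment it was 0.0101 (limma adjusted p = 0.982). *Fosb* ranked lowest of the FOS genes, from 67.9 to 79.2, and *Fosl1*, which encodes FRA-1, ranked from 79.7 to 85.7. Neither differed between the lines by more than its libraries varied, with differences from WT of 2.83 ± 3.07 and 1.14 ± 3.07 points for *Fosb* and of 1.49 ± 1.90 and 0.922 ± 1.90 for *Fosl1* in B10 and G7 (SE). *Fosl2*, which encodes FRA-2, ranked at 95.5, 96.7 and 96.6 in WT, 94.2, 95.9 and 94.2 in B10 and 93.4, 94.4 and 94.5 in G7. Here the differences were -1.50 ± 0.649 and -2.15 ± 0.649 points (SE, limma adjusted p = 0.15 and 0.0656), and with the replicate block both passed (limma adjusted p = 0.041 and 0.0106). The mean fold enrichment of this region did not fall, at 8.30 ± 0.564 in WT, 9.20 ± 0.769 in B10 and 8.33 ± 0.383 in G7 (SD, n = 3 each). Chromosome 5, which holds *Fosl2*, had medians of -2.33 and -2.62 points, so *Fosl2* lay no lower than its chromosome.

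BATF3 and MAFF are small bZIP proteins without a transactivation domain of their own, the first known from dendritic cells and the second a partner in antioxidant responses. The *Batf3* start site region (chr1:191097908-191098677) had no peak in the 6 WT and B10 libraries and ranked at 20.2, 31.9 and 6.99 in G7 replicates 1 to 3. These ranks are in the lower part of the peaks of these libraries. *Maff* was the strongest of all members, from 96.7 to 97.7 in every library, and differed from WT by 0.234 ± 0.395 points in B10 and 0.213 ± 0.395 in G7 (SE). In order of median rank the start site regions ran from *Maff* (97.4) over *Jund* (96.1), *Fosl2* (94.5), *Jun* (94.1), *Fos* (90.3), *Junb* (84.5), *Atf3* (83.7), *Fosl1* (83.0) and *Fosb* (75.2) to *Batf3* (20.2). Neighbours in this order had overlapping ranges over the libraries, except that all values of *Fos* were above those of *Junb*, all of *Fosl1* above those of *Fosb*, and all of *Fosb* above those of *Batf3*.

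Most member regions lay away from start sites: 10 covered one, 64 were upstream and 31 downstream, with a median distance of 23.5 kb and a largest of 215 kb. Their summits were intergenic in 53 cases and in an intron in 41. Of the *Fosl2* regions 17 sat in introns of the neighbouring gene *Babam2*, and 10 of the *Jun* regions sat in introns of *Junos*, an antisense transcript, so their assignment is uncertain. Member regions were found in all 9 libraries more often than regions in general, 61 of 105 (58.1%) against 48.7%. Per library, 86 to 90 of the 105 had a peak in WT, 82 to 89 in B10 and 80 to 84 in G7, while of all regions 74.6% to 76.1% had one in WT, 78.0% to 82.6% in B10 and 74.1% to 75.7% in G7. The mean was 88.0 ± 2.00 in WT, 86.3 ± 3.79 in B10 and 81.7 ± 2.08 in G7 (SD, n = 3 each), with exact two-sided permutation p = 0.7 for B10 and p = 0.1 for G7 against WT (adjusted over 4 comparisons, 0.933 and 0.4). All 3 G7 libraries were below all 3 WT libraries, and 0.1 is the smallest p that 3 against 3 can give.

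**Figure D2:**
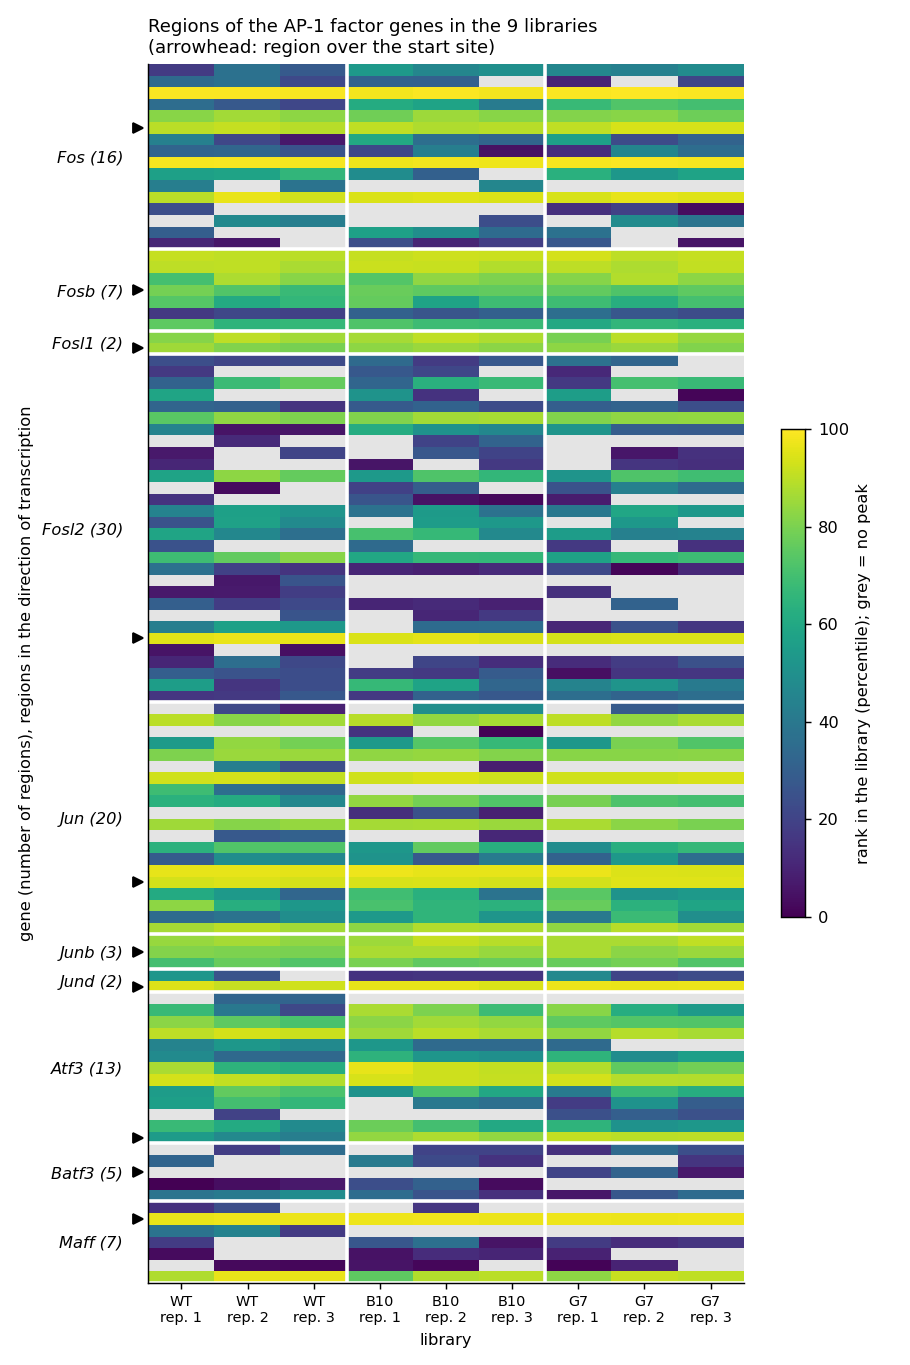
Rank of each of the 105 member regions (rows, grouped by gene and ordered in the direction of transcription) in each library (columns). Colour gives the rank as a percentile and grey marks a library with no peak. Regions over start sites (arrowheads) are bright in all 9 libraries except for *Atf3* in WT and *Batf3*, and most gaps fall in regions of low rank.

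Few member regions were gained or lost in the KO clones. Gained means a peak in at least 2 of 3 libraries of a clone and in 0 of 3 WT libraries, and lost means the reverse. In B10, 2 of 105 member regions were gained and 6 lost, where 10.4% of all 97338 regions were gained and 7.58% lost. In G7, 1 was gained and 10 lost, against 5.69% and 7.42% of all regions. The share gained was below the background in both clones and the shares lost, 5.71% and 9.52%, were near it. The replicate numbers were taken as paired because same-numbered libraries deviated together, though no label says what they share. The replicate block calls a region where the clone and WT differ in this way in at least 2 of 3 same-numbered pairs and the reverse holds in 0. With it, 7 member regions were gained and 6 lost in B10 (15% and 9.87% of all regions). In G7, 5 were gained and 14 lost (8.78% and 9.74% of all regions).

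The gained regions were weak. Both gained in B10 belonged to *Jun*: chr4:95117296-95117644, at ranks of 13.4, 24.9 and 9.0 in the B10 libraries, and chr4:95207833-95208163, at 15.02 in replicate 1 and 0.67 in replicate 3. Neither had a peak in any WT or G7 library, and both lay over 65 kb from the *Jun* start site. The region gained in G7 was the *Batf3* start site region described above.

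Of the regions lost, 2 had a peak in all 3 WT libraries and in none of the 6 KO libraries. One lay 106 kb upstream of *Jun* (chr4:95158635-95158920) at WT ranks of 69.0, 36.1 and 33.0, and the other in an intron of *Maff* 2.98 kb after the start site (chr15:79351377-79351712) at 38.2, 44.2 and 17.2. Among all regions 1.63% showed this pattern. Their sequences are shown as the clearest losses, 101 bases around the strongest summit on the plus strand of mm10, chr4:95158734-95158834 and chr15:79351477-79351577.
Jun, 106 kb upstream: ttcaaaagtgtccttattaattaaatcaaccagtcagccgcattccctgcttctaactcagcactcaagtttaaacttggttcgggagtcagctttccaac
Maff, intron: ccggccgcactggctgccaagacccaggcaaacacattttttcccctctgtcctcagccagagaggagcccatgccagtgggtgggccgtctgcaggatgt
Neither held TGACTCA, TGACGTCA, TGACATCA or a CArG box.

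Among the other losses, 3 were seen in no KO library and lacked a peak in 1 WT library. They were the region 47.5 kb upstream of *Atf3* (chr1:191265520-191265752) at 32.6 and 32.1 in WT replicates 2 and 3, the region 32.7 kb upstream of *Fosl2* (chr5:32102481-32103054) at 6.38 and 26.0 in the same libraries, and an intronic region of *Fosl2* (chr5:32151261-32151633) at 5.20 and 4.21 in WT replicates 1 and 3. Another *Fosl2* region (chr5:32112259-32112862) was lost in B10 but had a peak at a rank of 14.04 in G7 replicate 1. Lost in G7 only were 5 regions, each with a peak in at least 1 B10 library: *Jun* at chr4:95100647-95100966 and chr4:95187985-95188419, *Fos* at chr12:85496841-85497137, *Maff* at chr15:79342848-79343406 and *Batf3* at chr1:191122853-191123190. The 11 regions lost in either clone had WT ranks from 0.0739 to 69.0 with a median of 25.0, and were narrow, with a median width of 338 bp against 1004 bp for the member regions in all 9 libraries. WT replicate 1 had no peak in 4 of them, and in 34.8% of all regions lost in either clone.

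Changes in strength were tested in the 61 member regions with a peak in all 9 libraries, in a limma fit over all 47431 such regions. The rank was higher in B10 for 6 member regions and lower for 0 (11.0% and 5.37% of all tested regions), and higher in G7 for 3 and lower for 0 (5.39% and 4.82% of all). At an unadjusted p under 0.05, 12 were higher and 5 lower in B10 (19.8% and 11.0% of all tested regions), and 9 higher and 5 lower in G7 (13.1% and 12.9% of all). By limma without a trend 4 were higher in B10 and 2 in G7 (8.28% and 4.06% of all), and 0 were lower. The share of members called higher, 9.84% and 4.92%, was close to the background in both clones. Their median difference was 1.28 points in B10 and 0.566 in G7, beside medians of 0.702 and -0.035 over all tested regions.

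With the replicate block the same fit called 15 member regions higher and 6 lower in B10 (21.4% and 12.1% of all regions), and 10 higher and 5 lower in G7 (13.2% and 13.4% of all). All regions called without the block were called with it. The 15 included 6 of *Atf3* and 3 each of *Fos* and *Fosl2*, and the 10 included 4 of *Atf3* and 2 of *Fos*. Among those called lower only with the block were the *Maff* region 19.9 kb downstream, by -9.17 points in B10 and -5.33 in G7 (limma adjusted p = 0.00039 and 0.00999), and among those higher the *Fosl2* region 138 kb upstream, by 34.5 and 18.1 points (limma adjusted p = 0.00155 and 0.045). Over all regions the split of higher and lower calls in B10 turned on the scale: 5226 and 2548 by rank, 3238 and 3784 with the chromosome median taken off, and 1641 and 1421 on log2 fold enrichment, where 2 member regions were called higher in B10 and 1 in G7 (3.46% and 1.54% of all regions). When WT replicate 1 was left out, 12 member regions were called higher in B10 and 8 in G7 (14.9% and 8.33% of all regions). The calls in B10 came to 1 when WT replicate 3, B10 replicate 1 or B10 replicate 2 was left out (6.47%, 6.63% and 5.75% of all regions), and to 3 in the absence of WT replicate 2 (6.80% of all).

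**Figure D3:**
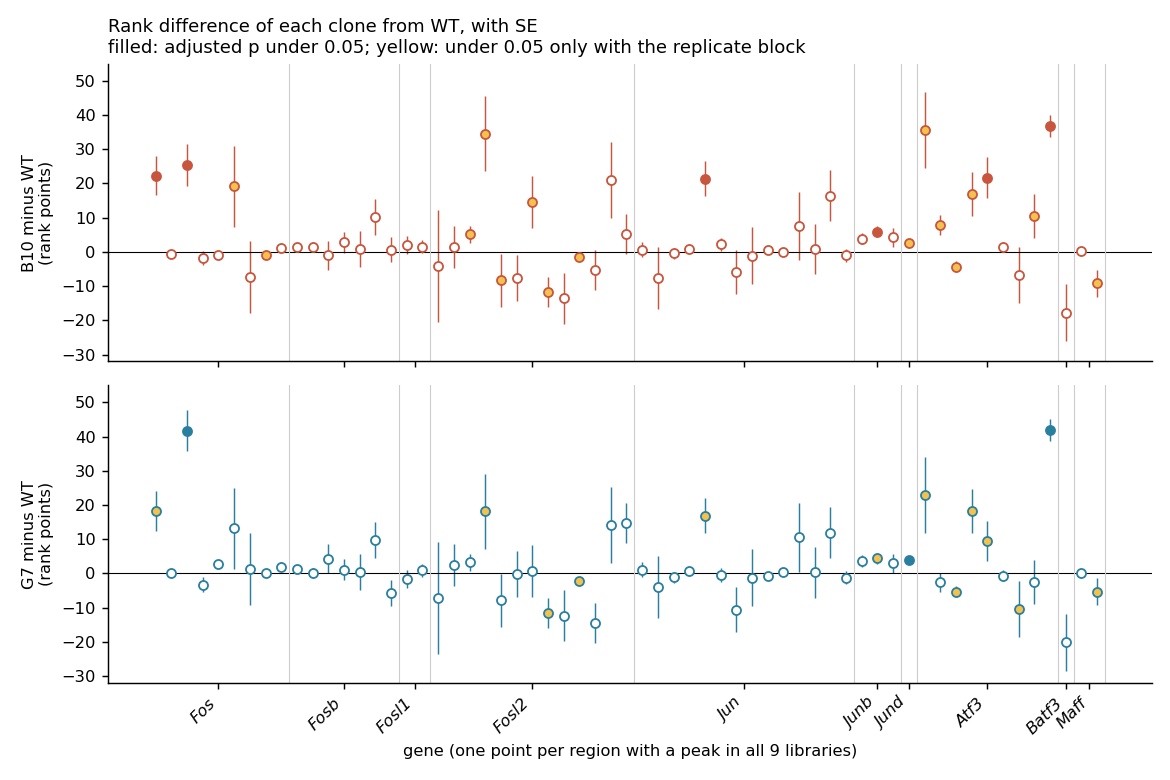
Rank difference from WT of each member region with a peak in all 9 libraries (points, grouped by gene along the x axis) in B10 (top) and G7 (bottom), in rank points on the y axis with the SE as bars. Filled points passed an adjusted p of 0.05 and yellow ones only with the replicate block. The *Atf3* start site region and a *Fos* region stand highest in G7, at 41.9 and 41.8 points, and 0 filled points lie below the line.

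Away from start sites the clearest difference was at *Fos*. A region 10.7 kb upstream (chr12:85461983-85463161, intergenic) had ranks of 35.9, 27.8 and 21.4 in WT, 61.6, 58.1 and 41.4 in B10 and 67.3, 72.8 and 70.3 in G7. All KO libraries were above all WT libraries, and the G7 libraries were above all B10 libraries. The rank rose by 25.3 ± 6.10 points in B10 (SE, limma adjusted p = 0.0211) and by 41.8 ± 6.10 in G7 (SE, limma adjusted p = 0.00376), and B10 and G7 differed past the threshold only with the replicate block (-16.4 points, limma adjusted p = 0.148 without it and 0.0387 with it). The call in G7 held under every alternative fitted, and that in B10 was lost without any 1 of WT replicates 2 and 3 and B10 replicates 1 and 2 (limma adjusted p from 0.0623 to 0.0775). The 101 bases around its summit, chr12:85462364-85462464, are shown because this region moved most in G7 among tested member regions away from a start site. They held none of the 4 motifs. In B10 an *Atf3* and a *Fosl2* region had larger differences, called only with the replicate block.
Fos, 10.7 kb upstream: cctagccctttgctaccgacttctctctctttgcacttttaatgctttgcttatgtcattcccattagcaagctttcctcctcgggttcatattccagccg
Its neighbours were not called: the *Fos* region 17.8 kb upstream ranked from 98.2 to 99.6 in all 9 libraries and the one 1.26 kb upstream from 78.0 to 86.0, with differences from WT that did not pass the limma test in either clone.

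Further out, a *Fos* region 42.6 kb upstream (chr12:85430288-85431271) ranked at 17.3, 37.3 and 28.1 in WT, 54.1, 45.7 and 49.8 in B10 and 45.8, 43.7 and 48.1 in G7. It rose by 22.3 ± 5.71 points in B10 (SE, limma adjusted p = 0.0272), and the difference of 18.3 ± 5.71 in G7 had a limma adjusted p of 0.0738, or 0.0376 with the replicate block. The *Jun* region 85.3 kb upstream (chr4:95137482-95138259) ranked at 63.7, 61.6 and 46.3 in WT, 83.9, 79.0 and 72.8 in B10 and 79.7, 72.3 and 70.3 in G7. It rose by 21.3 ± 5.12 points in B10 (SE, limma adjusted p = 0.0209), and G7 differed from WT by 16.9 ± 5.12 (SE, limma adjusted p = 0.067, or 0.00275 with the replicate block). In both regions every KO library was above every WT library, as 20.9% of all tested regions were in B10 and 14.2% in G7. The B10 calls were lost on log2 fold enrichment, and also without WT replicate 3 or any 1 B10 library at *Fos* (limma adjusted p from 0.0548 to 0.0864) and without WT replicate 3 or B10 replicate 1 or 2 at *Jun* (limma adjusted p from 0.0523 to 0.075).

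*Atf3* has a second start site at 191218039, upstream of the first, and 9 of its regions lie beyond that one. The region 12.1 kb upstream of the second start site (chr1:191230186-191230983) ranked at 87.2, 64.5 and 62.4 in WT, 96.3, 92.2 and 90.7 in B10 and 88.4, 75.7 and 78.6 in G7. It rose by 21.7 ± 5.94 points in B10 (SE, limma adjusted p = 0.0347), and the difference of 9.54 ± 5.94 in G7 passed only with the replicate block (limma adjusted p = 0.351 without it and 0.0486 with it). The B10 call was lost on log2 fold enrichment and without any 1 of WT replicates 2 and 3, the B10 libraries and G7 replicate 3 (limma adjusted p from 0.055 to 0.12). The region 43.7 kb upstream (chr1:191261714-191262411) ranked at 67.9, 40.2 and 21.6 in WT, 87.5, 80.4 and 68.6 in B10 and 82.2, 62.1 and 54.5 in G7. Here WT replicate 1 lay above the other WT libraries and inside the range of G7, and the differences of 35.6 and 23.04 points were called only with the replicate block (limma adjusted p = 0.0567 and 0.227 without it, 0.000414 and 0.00625 with it). Next to the second start site itself, the region at chr1:191216094-191217128 ran the other way. Its ranks were 56.3, 70.3 and 66.2 in WT, 40.2 and 36.5 in B10 with no peak in replicate 1, and 17.9, 50.9 and 29.6 in G7, so all KO values were below all WT values, and it was outside the test since a library lacked a peak.

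**Figure D4:**
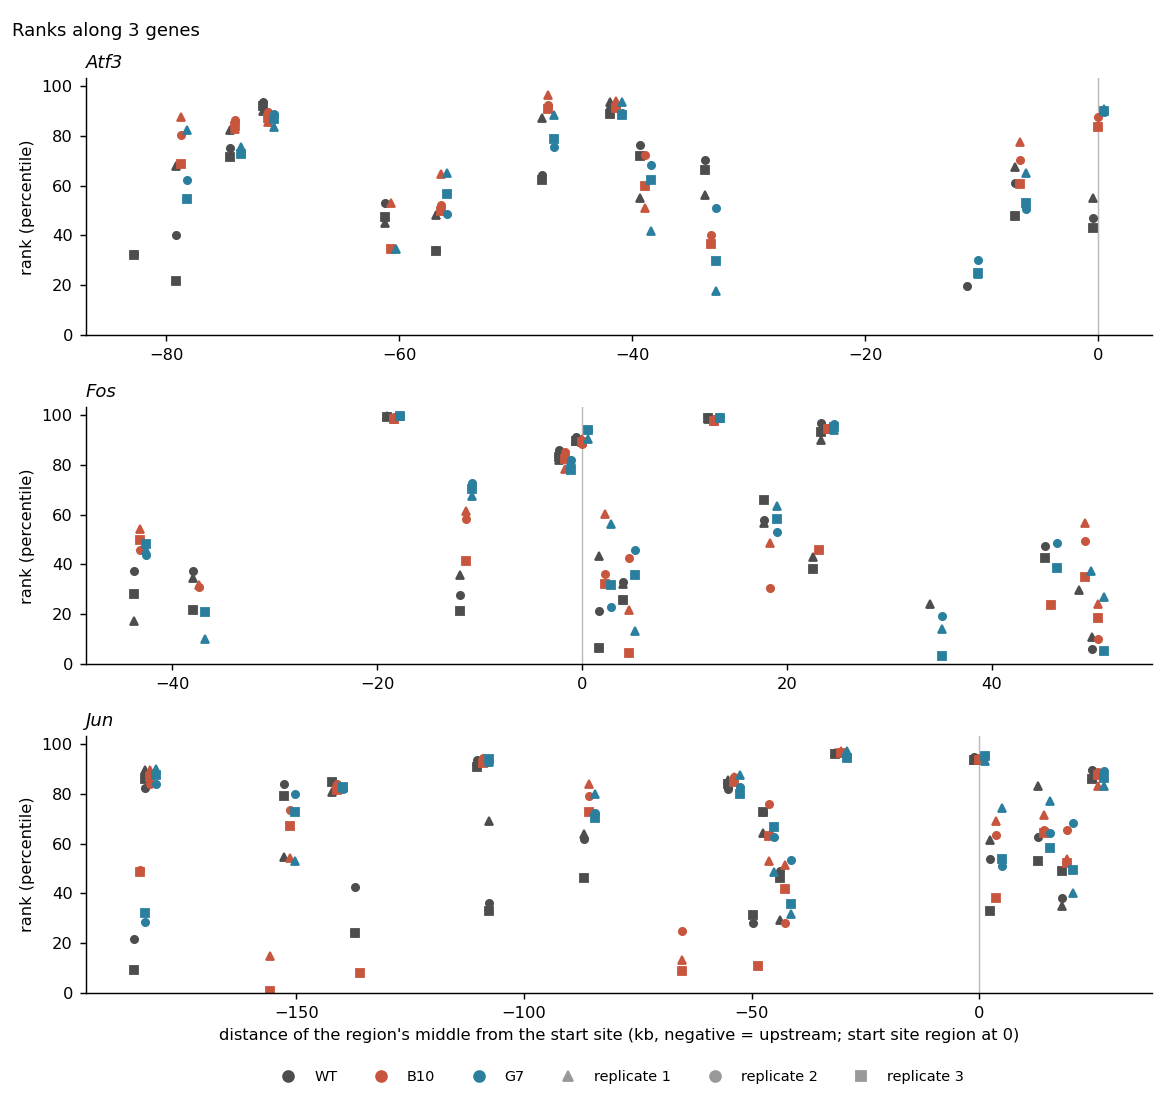
Ranks of all regions of *Atf3*, *Fos* and *Jun* (y axis, percentile) by the distance of the region's middle from the start site in its start site region (x axis, kb, upstream negative). Symbols give the replicate number and colours the line, and the lines are set slightly apart along the x axis. WT lies below both clones at the *Atf3* start site and at the *Fos* region 10.7 kb upstream, while the *Jun* start site region lies between 93.1 and 95.3 and the 2 strongest distal regions of *Fos* lie at 97.5 or above in every library.

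B10 and G7 were also compared directly. By limma 0 member regions differed, against 4.21% of all regions higher in B10 and 2.39% lower, and 5 had an unadjusted p under 0.05 (14.9% of all regions did so higher in B10 and 7.26% lower), of which 4 were *Fos* regions lower in B10 than in G7. With the replicate block 3 were higher in B10 and 4 lower (14.3% and 6.58% of all regions). The 3 higher ones belonged to *Atf3*, at 6.28, 12.1 and 39.0 kb upstream of a start site, by 13.1, 12.2 and 10.45 points (limma adjusted p = 0.0291, 0.0223 and 0.0131 with the replicate block, 0.272, 0.269 and 0.0596 without it). The lower ones were the *Fos* start site region, by -3.65 points, the *Fos* regions 10.7 kb upstream and 11.7 kb downstream, by -16.4 and -1.12 points, and the *Maff* region 19.9 kb downstream, by -3.84 points (limma adjusted p from 0.0278 to 0.0486 with the replicate block, 0.0856 to 0.637 without it). Chromosome 12, which holds *Fos*, had median differences from WT of -1.22 points in B10 and 1.69 in G7, so its regions in general were also lower in B10 than in G7.

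Replicate 1 of each line was also compared with replicates 2 and 3. In a limma fit with the line as a term, 11 member regions ranked higher in replicate 1 and 12 lower, where 13.3% and 14.6% of all tested regions did. The shares of members were 18.0% and 19.7%. By presence, 2 member regions had no peak in any replicate 1 library and peaks in at least 4 of the 6 others, where 2.56% of all regions did: *Jun* 184 kb upstream and *Fos* 45.6 kb downstream. Without WT replicate 1 the limma calls came to 5 higher and 7 lower (4.69% and 9.99% of all tested regions). Without G7 replicate 1 they came to 6 and 7 (6.94% and 9.77% of all).

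The 5 largest calls show how it looked in the libraries. A *Fosl2* region 199 kb upstream (chr5:31935848-31936312) ranked at 31.6, 68.1 and 76.3 in WT, 32.5, 63.4 and 67.8 in B10 and 16.6, 70.4 and 67.8 in G7, so replicate 1 was lowest in each line, by 42.1 points on average (SE 4.03, limma adjusted p = 0.000125). A *Fos* region 1.60 kb after the start site, with its summit in a coding exon, ranked at 43.5, 21.3 and 6.58 in WT, 60.4, 36.1 and 32.3 in B10 and 56.3, 22.7 and 31.8 in G7, higher in replicate 1 by 28.2 ± 4.67 points (SE, limma adjusted p = 0.00174). The *Fosl2* region 138 kb upstream ranked at 44.7, 5.22 and 5.69 in WT, 62.0, 50.8 and 46.3 in B10 and 51.8, 29.6 and 28.5 in G7. Replicate 1 was again highest in each line, by 25.1 ± 4.97 points (SE, limma adjusted p = 0.00424). The *Atf3* region 43.7 kb upstream, with the values given above, was higher in replicate 1 by 24.6 ± 5.16 points (SE, limma adjusted p = 0.00573, or 0.0519 without WT replicate 1), and the *Jun* region 151 kb upstream was lower by 22.1 points (SE 2.99, limma adjusted p = 0.000641), at 54.6, 84.0 and 79.2 in WT, 54.2, 73.5 and 67.1 in B10 and 53.0, 80.1 and 72.7 in G7.

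The member regions that ranked lower in replicate 1 mostly held the binding site of AP-1 itself. TGACTCA was present, on either strand within 100 bases of the strongest summit, in 8 of the 12 regions lower in replicate 1 (66.7%) and in 2 of the 11 higher ones (18.2%). Among all consensus regions 18.4% held it, among all those lower in replicate 1 50.9% did, and among all those higher 4.86% did. These sequences, 101 bases around the summit on the plus strand of mm10, belong to 5 of the 8, chosen after their values were seen to show the site at 4 genes. Capitals mark TGACTCA or its reverse complement TGAGTCA. They are at chr5:31936082-31936182, chr4:95203725-95203825, chr1:191222137-191222237, chr5:32035927-32036027 and chr15:79368641-79368741.
Fosl2, 199 kb upstream: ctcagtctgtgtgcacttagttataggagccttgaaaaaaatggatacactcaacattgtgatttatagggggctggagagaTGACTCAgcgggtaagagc
Jun, 151 kb upstream: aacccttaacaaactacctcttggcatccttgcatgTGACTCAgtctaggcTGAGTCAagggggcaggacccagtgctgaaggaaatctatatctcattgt
Atf3, 4.0 kb upstream: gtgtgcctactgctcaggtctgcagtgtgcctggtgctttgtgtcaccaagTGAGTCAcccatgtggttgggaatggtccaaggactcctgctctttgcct
Fosl2, 99.5 kb upstream: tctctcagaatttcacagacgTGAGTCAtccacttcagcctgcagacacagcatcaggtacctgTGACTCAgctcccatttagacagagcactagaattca
Maff, 19.9 kb downstream: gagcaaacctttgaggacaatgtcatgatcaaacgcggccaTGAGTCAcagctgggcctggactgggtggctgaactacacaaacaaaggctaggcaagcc
The *Jun* region and the *Fosl2* region 99.5 kb upstream held 2 copies each, 1 in either orientation. At the *Atf3* region 4.0 kb upstream of the second start site the ranks were 55.1, 76.2 and 71.8 in WT, 50.8, 72.2 and 59.9 in B10 and 41.8, 68.1 and 62.1 in G7. At the *Maff* region, in an intron of *Tmem184b*, they were 88.0, 96.7 and 96.5, then 75.3, 88.7 and 89.8, and then 82.9, 91.7 and 90.6. Replicate 1 was the lowest of its line in each of these, by 19.2 ± 3.46 points at *Atf3* and 10.3 ± 1.03 at *Maff* (SE, limma adjusted p = 0.00268 and 0.000158). The *Maff* call was lost on log2 fold enrichment and under quantile normalization.

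Of the 61 tested member regions, the 14 with TGACTCA had a median difference of -8.82 points in replicate 1, and 11 of the 14 were below 0, while the 47 without it had a median of 1.42 and 21 were below 0. Over all tested regions the medians were -5.35 with the motif (n = 8676) and 1.29 without it (n = 38755). Between the lines the same 14 regions had medians of -4.97 points in B10 and -4.66 in G7, with 11 below 0 in each, and the other 47 had medians of 2.15 and 1.11, with 11 and 13 below 0. All tested regions had medians of -1.51 and -2.60 points with the motif and 1.05 and 0.256 without it. TGACTCA was held by 4.27% of all consensus regions over coding start sites and by 20.4% of those away from them. The medians were not split by place, so motif and distance from a start site cannot be told apart here. None of the 14 was called in either clone without the replicate block, and none of the 7 member regions called higher in B10 or G7 held TGACTCA. Of all consensus regions 18.4% held it. The matching shares over all called regions are not given here, so these small counts are no result about the site. The medians and counts are descriptions over regions of the same libraries and carry no test.

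**Figure D5:**
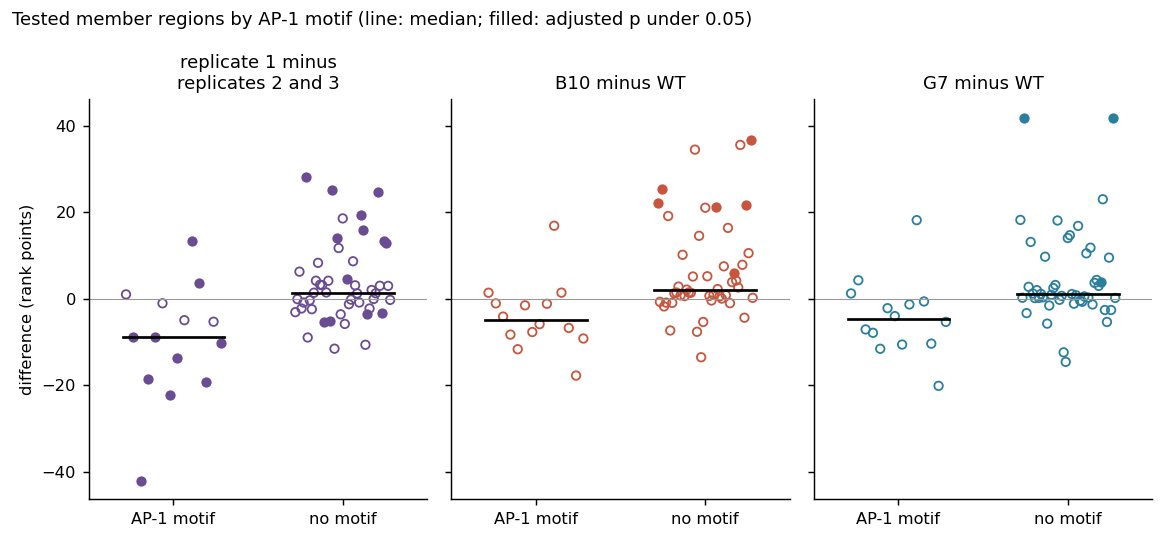
Differences in rank points (y axis) of the 61 tested member regions, with and without TGACTCA near the summit (x axis), for replicate 1 against replicates 2 and 3 (left), B10 against WT (middle) and G7 against WT (right). Each point is a region, black lines are medians and filled points passed an adjusted p of 0.05. The medians with the motif are -8.82, -4.97 and -4.66 points, and those without it 1.42, 2.15 and 1.11.

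Related genes were tested in the same way at their start sites. Of 21 bZIP partners, which encode proteins that can pair with JUN, FOS or MAF proteins or share their sites, 19 had a region over a start site and 18 had it in all 9 libraries. By limma 0 were higher and 1 lower in B10 (11.0% and 5.37% of all tested regions), and 0 higher and 2 lower in G7 (5.39% and 4.82% of all). *Bach2*, a repressor that pairs with small MAF proteins, fell from a mean rank of 88.0 in WT to 74.9 in B10 and 81.1 in G7, differences of -13.2 and -6.92 points (SE 1.46 each, limma adjusted p = 0.000681 and 0.0179). *Atf2*, a CRE-binding partner of JUN, was the other call in G7, at 97.8 in WT and 95.5 in G7. *Atf6* and *Jdp2* had the next largest differences, -6.01 points in G7 and -4.25 in B10, and passed only with the replicate block (limma adjusted p = 0.102 and 0.0752 without it, 0.0301 and 0.0144 with it). With the replicate block the calls for this list came to 0 higher and 2 lower in B10 (21.4% and 12.1% of all tested regions). In G7 they came to 2 higher and 4 lower (13.2% and 13.4% of all).

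Of 20 genes for upstream kinases, phosphatases and serum response factors, all had a start site region in all 9 libraries. By limma 1 was higher in each clone (11.0% of all tested regions in B10 and 5.39% in G7). This was *Map2k7*, a kinase that activates JNK, at mean ranks of 91.1 in WT, 95.0 in B10 and 95.7 in G7, and it is on chromosome 8. *Mapk3* and *Map3k1* differed by 8.12 and 6.13 points in B10 and passed only with the replicate block (limma adjusted p = 0.0614 and 0.132 without it, 0.0169 and 0.0467 with it). With the block, 7 of these genes were higher in B10 and 2 in G7 (21.4% and 13.2% of all tested regions), and 0 were lower (12.1% and 13.4% of all). Of 23 immediate early and AP-1 target genes, 20 had a region over a start site and 1 had one within 1 kb of it. By limma 4 were higher and 1 lower in B10 (11.0% and 5.37% of all tested regions), and 2 higher and 2 lower in G7 (5.39% and 4.82% of all). With the replicate block the counts were 7 and 3 in B10 (21.4% and 12.1% of all) and 6 and 3 in G7 (13.2% and 13.4% of all). The largest difference was at *Ccnd1*, the gene for cyclin D1, whose mean rank was 62.4 in WT, 66.7 in B10 and 83.4 in G7, a rise of 20.9 points in G7 (limma adjusted p = 0.00348). *Spp1*, which encodes osteopontin, rose by 11.4 points in B10 (limma adjusted p = 0.0339), and *Plau*, which encodes urokinase, differed by 6.97 points in G7 (limma adjusted p = 0.0887, or 0.0359 with the replicate block). The other genes called, named after their values were seen, were *Egr1*, *Ier2* and *Ier3*, higher in B10, *Hmox1*, higher in G7, *Egr3*, lower in both clones, and *Cd44*, lower in G7. *Ier2* and *Hmox1* are also on chromosome 8. Median differences were 2.74 points in B10 and 1.78 in G7 for this list, 1.07 and 1.07 for the upstream genes, and 0.305 and -0.084 for the bZIP partners. Among the marker genes, *Col1a2* was called higher in B10, the neural marker *Tubb3* lower in B10 and the endothelial marker *Tek* higher in G7, or in both clones with the replicate block.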

How the data were processed

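Omni-ATAC-seq peaks of 9 libraries, 3 per line, were analysed, grouped as the labels give them. The authors trimmed reads with Rfastp, aligned them to mm10 with Rsubread and called peaks in each library with MACS2, and the deposited columns used hold each peak's fold enrichment (a ratio), its −log10 p-value and its −log10 q-value. The deposited score was not used. The version of MACS2 is not given in the sources used here, peak names mention an input that the methods do not describe, and read depth is unknown.

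The 10 genes and all gene lists were chosen with earlier results of these data known. Merged regions were assigned to protein-coding start sites (GENCODE M21). For regions present in all 9 libraries, ranks were tested with limma 3.58.1 in R 4.3.3 (trend, all groups in 1 fit, Benjamini-Hochberg over all regions, called at an adjusted p under 0.05), and numbers of peaks by an exact permutation test. The fit was tested on simulated data with independent noise in each library, which leaves out the pairing described next. Same-numbered libraries deviated together (correlations from 0.314 to 0.664 in 9 pairs, against -0.561 to 0.311 in 18 others), so the numbers were taken as paired and a fit with the replicate block is given. Every start site region, every region called in a clone without the replicate block and the 5 largest differences of replicate 1 are named. For each other list up to 3 genes were named by largest difference, and further called genes were added after their values were seen. Alternatives were planned for normalization, filters, merging, assignment and left-out libraries. Motifs were searched within 100 bases of the strongest summit.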

Additional observations from a re-analysis of the deposited data

How the results depend on the processing

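Counts of member regions moved with the settings, and the causes were not tested. The member set itself changed from 105 regions to 34 with start sites of every gene type, 77 within 50 kb, 97 at a −log10 q-value of at least 5, 100 when peaks had to cover 0.5 of a region and 100 with equal numbers of peaks. The 2 regions gained in B10 became 4 of 97 at this q-value (9.56% of all regions), 5 of 100 with this cover (12.8% of all), 0 of 34 with every gene type, 0 of 77 within 50 kb and 7 of 105 with the replicate block. The 6 lost became 10 of 100 with this cover (10.503% of all) and 2 of 34, or 5.88%, with every gene type (7.58% of all, as for the 105). In G7 the 1 gained became 2 of 100 with equal numbers of peaks, 3 of 97 at the stricter q-value, 3 of 100 with this cover and 5 of 105 with the replicate block (6.21%, 5.12%, 7.86% and 8.78% of all), and the 10 lost became 4 of 34, or 11.8%, with every gene type (7.42% of all). Leaving out each library in turn gave 1 to 10 gained and 3 to 10 lost in B10, and 1 to 6 gained and 4 to 12 lost in G7. The most gained, 10 and 6, came without WT replicate 1 (where 15.9% and 9.46% of all regions were gained; 4 and 3 without WT replicate 2, and 1 in B10 without B10 replicate 1 or 3), and the fewest lost, 3 and 4, without WT replicate 3 (5 in G7 without WT replicate 2). Without B10 replicate 3, 10 were lost in B10. The calls of higher rank became 2 in B10 and 1 in G7 on log2 fold enrichment, 2 and 1 under quantile normalization, and 15 and 10 with the replicate block, with 1 to 12 in B10 and 2 to 8 in G7 when a library was left out. Calls of lower rank, 0 in both clones, became 1 in B10 with the chromosome median taken off, 1 in G7 with a peak in at least 5 of 9 libraries, and 6 and 5 with the replicate block, with 0 to 1 and 0 to 2 when a library was left out (the highest without WT replicate 1). Between B10 and G7 the 0 calls higher in B10 became 1 with a peak in at least 5 of 9 libraries and 3 with the replicate block, and the 0 lower became 1 with the chromosome median taken off and 4 with the replicate block, with 0 to 2 and 0 to 1 when a library was left out (alternatives chosen after seeing the data; 2 and 1 higher without WT replicates 1 and 3, and 1 lower without G7 replicate 1). In replicate 1, the 12 lower calls became 5 on log2 fold enrichment and 5 under quantile normalization (9.68% and 9.14% of all). Leaving out a library gave 5 to 13 higher (4.69% to 12.2% of all) and 7 to 13 lower (9.77% to 14.5% of all). At start sites 195 of 216 alternative values stayed on the same side of the threshold, where a change of sign was not counted if neither value passed. Of the others, 12 lost the call, 7 gained it, and 2 lost it with a change of sign: *Jund* in G7 at -0.0646 on log2 fold enrichment and at -0.526 with the chromosome median taken off. At the start sites of members and listed genes named here, the replicate block changed no call other than those given beside the results, apart from *Ier2* and *Mapk3* in G7 and *Hmox1* in B10, which passed with it (limma adjusted p = 0.0296, 0.0444 and 0.00938). Depth is unknown, so weak peaks near the threshold cannot be told from absent ones.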
